A study of Mus musculus with 18 samples.

Results

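The genes described here are 10 mouse genes that act in or respond to Wnt signalling as feedback inhibitors, antagonists or transcription factors of the pathway. They were taken by name: Axin2, Nkd1, Rnf43, Znrf3, Sp5, Tcf7, Lef1, Sfrp5, Sfrp1 and Notum. All 10 were found among the 55414 genes of the deposited table. RNA was sequenced from 18 cultures of small intestinal organoids of C57BL/6J wild-type mice, 3 biological replicates in each of 6 groups. VIL libraries came from organoids grown out of villi, taken next to the pylorus and kept in type I collagen under diluted cWRNE medium. COL_cWRNE was grown from crypts in that matrix and medium. COL_5FU and COL_Control were grown from crypts in the same collagen but under ENRW medium, with and without 5-fluorouracil (5-FU), a pyrimidine analog that disturbs DNA and RNA synthesis. MG_5FU and MG_Control were grown from crypts in Matrigel, which is extracted from basement membrane, with and without 5-FU. Their ENR medium supplied R-spondin 1, Noggin and EGF. The drug was given at 40 µM from day 4, and cultures were harvested on day 6. The make-up of ENRW and cWRNE medium is not given in the sources used here. Collagen and Matrigel groups differed in medium as well as in matrix, so the effects of matrix and medium cannot be told apart. Crypts were isolated from the small intestine with no region named, so VIL and COL_cWRNE may differ in region as well as in villus or crypt origin.

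Wnt ligands bind Frizzled and Lrp receptors, which blocks the destruction of β-catenin and lets it act in the nucleus with transcription factors of the Tcf/Lef family. In the intestine this signal maintains crypt stem cells and Paneth cells, and it is low in the villus. Several target genes of the pathway encode its own inhibitors, so that a strong signal is damped. Axin2 encodes a scaffold of the complex that destroys β-catenin, and Nkd1 a cytoplasmic inhibitor that binds Dishevelled. Rnf43 and Znrf3 encode ubiquitin ligases that remove Frizzled from the cell surface and are themselves held back by R-spondins. Notum encodes a secreted enzyme that removes the lipid from Wnt ligands, and Sfrp1 and Sfrp5 encode secreted proteins related to Frizzled that bind Wnt ligands. Sp5 encodes a transcription factor induced by Wnt, and Tcf7 and Lef1 encode DNA-binding partners of β-catenin.

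Start-site windows are shown for Sp5 and Nkd1, which were called higher with 5-FU in Matrigel, and for Axin2, which was called lower there. They come from RefSeq, build GRCm38.p6 (the deposited table was made on another build), and run from 250 bases before to 50 bases after the gene start, 5′ to 3′ along the gene. Capitals mark a match, on either strand, to CTTTGAT or CTTTGAA, words bound by Tcf/Lef proteins.
Sp5, chr2:70474673-70474972, plus strand: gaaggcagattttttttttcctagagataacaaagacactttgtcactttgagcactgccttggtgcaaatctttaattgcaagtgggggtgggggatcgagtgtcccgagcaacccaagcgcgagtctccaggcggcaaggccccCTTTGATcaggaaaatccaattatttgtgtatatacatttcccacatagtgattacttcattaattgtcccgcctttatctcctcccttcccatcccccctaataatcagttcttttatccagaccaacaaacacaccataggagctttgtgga
Nkd1, chr8:88527383-88527682, plus strand: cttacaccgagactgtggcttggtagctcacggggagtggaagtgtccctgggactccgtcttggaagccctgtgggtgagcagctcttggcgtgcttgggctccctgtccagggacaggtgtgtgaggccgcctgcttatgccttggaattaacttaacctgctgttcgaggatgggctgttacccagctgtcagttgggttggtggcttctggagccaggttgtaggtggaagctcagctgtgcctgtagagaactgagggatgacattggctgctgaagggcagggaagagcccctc
Axin2, chr11:108920099-108920398, plus strand: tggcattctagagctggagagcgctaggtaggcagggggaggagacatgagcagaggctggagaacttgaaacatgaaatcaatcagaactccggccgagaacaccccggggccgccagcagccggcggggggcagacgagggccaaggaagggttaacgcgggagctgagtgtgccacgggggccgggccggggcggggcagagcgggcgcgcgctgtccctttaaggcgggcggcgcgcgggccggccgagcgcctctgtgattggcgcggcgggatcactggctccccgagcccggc
RefSeq gave 12 such windows for 7 of the 10 genes, Axin2, Nkd1, Rnf43, Sp5, Tcf7, Lef1 and Sfrp5. The words were found in 1 of the 12 windows, that of Sp5, 104 bases before its start. Among all 32851 windows of the same length in the RefSeq table, 3.73% held CTTTGAT, 5.14% held CTTTGAA and 8.65% held either. A match is a string of letters and no measure of binding, and a window without one says nothing about binding elsewhere.

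Total estimated counts per library ranged from 22.3 M to 34.5 M. All 8 epithelial markers (among them Epcam, Cdh1 and Vil1) were detected in every library, with summed levels of 4717 to 15700 TPM. Mesenchymal markers, 12 in all, summed to 23.0, 318 and 314 TPM in VIL replicates 1, 2 and 3, against 0.615 to 7.48 TPM in the 15 crypt-derived libraries. VIL replicates 2 and 3 had all 12 of them and VIL replicate 1 had 11, while 3 to 10 of the 12 were at 0 in each crypt-derived library. Of 6 other immune markers, Adgre1 had 2021 counts over VIL and 0 counts over each crypt-derived group, and the list summed to 122, 394 and 481 TPM in VIL replicates 1, 2 and 3, against 142, 157 and 116 TPM in COL_cWRNE. In the other crypt groups it summed to 74.5 to 105 TPM in COL_5FU, 38.5 to 77.1 in COL_Control, 16.9 to 19.8 in MG_5FU and 14.5 to 22.0 TPM in MG_Control, so the immune list differed among crypt-derived groups too, and its part in the results was not tested. VIL replicates 2 and 3 therefore stand apart, chiefly on the mesenchymal list, and results that rest on them are also given with VIL replicate 1 alone. Replicate 2 of each of the 6 groups had 3323 to 5577 counts of Y-linked genes and at most 0.037 TPM of Xist, and replicates 1 and 3 had 12.2 to 20.1 TPM of Xist, so the replicate number went with the sex of the source animal in all groups. COL_Control replicate 3 had 738 counts of Y-linked genes beside an Xist level of 14.0 TPM, whereas each other library had either no more than 1 such count or almost no Xist. Results that rest on that library are given without it too. In such bulk samples, fewer cells of a type and less RNA per cell cannot be told apart.

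**Figure D1:**
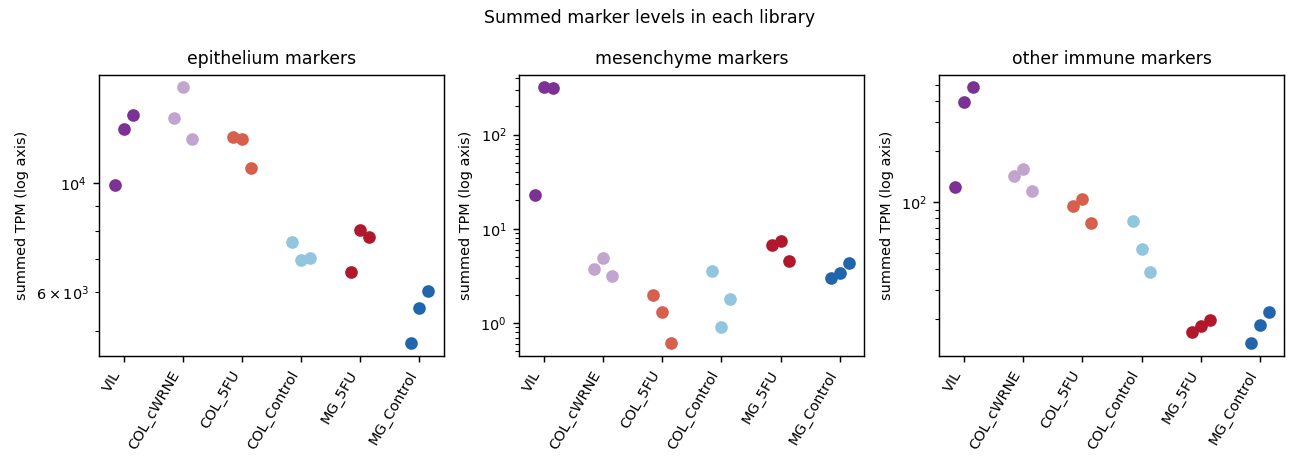
Summed TPM (log axis) of 8 epithelial, 12 mesenchymal and 6 other immune markers in each library, 1 point per library, by group. VIL replicates 2 and 3 reach 318 and 314 TPM of mesenchymal markers, and the crypt-derived libraries lie at 7.48 TPM or below.

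Levels between genes were compared on the TPM scale, which is per transcript length. Rnf43 (ENSMUSG00000034177.16) had the highest mean level of the 10 genes over the 18 libraries, 60.6 TPM, followed by Tcf7 (ENSMUSG00000000782.17) at 22.2, Sp5 (ENSMUSG00000075304.3) at 19.2 and Axin2 (ENSMUSG00000000142.16) at 13.6 TPM. Nkd1 (ENSMUSG00000031661.13) averaged 5.78 TPM, Znrf3 (ENSMUSG00000041961.15) 5.70 and Sfrp5 (ENSMUSG00000018822.8) 4.14 TPM. Notum (ENSMUSG00000042988.11) averaged 1.03 TPM, Lef1 (ENSMUSG00000027985.15) 0.540 and Sfrp1 (ENSMUSG00000031548.8) 0.0548 TPM. The 3 genes with the lowest means rested on few counts: Sfrp1 had under 10 estimated counts in 15 of 18 libraries, Lef1 in 7 and Notum in 5.

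The order of the groups differed between the genes. Axin2 had its highest mean TPM in COL_cWRNE (19.5 ± 3.07 TPM, SD, n = 3), overlapped between neighbours from there through COL_Control, MG_Control and COL_5FU, and had its lowest mean in VIL (6.39 ± 0.93 TPM). MG_5FU and VIL did not overlap with the group above them in that order. Nkd1 was highest in COL_cWRNE (13.3 ± 3.99 TPM), apart from MG_5FU and COL_5FU, and lowest in MG_Control (1.57 ± 0.18 TPM), which overlapped with VIL. Sp5 was highest in COL_cWRNE (34.9 ± 1.81 TPM) without overlap with the next group, and lowest in MG_Control (8.17 ± 2.45 TPM). Rnf43 and Tcf7, though different in function, both had the 3 crypt groups in collagen on top with overlapping ranges, 71.3 to 76.0 TPM for the group means of Rnf43 and 28.0 to 29.8 TPM for those of Tcf7. VIL overlapped with those groups for Rnf43 (68.3 ± 9.02 TPM) and lay below them for Tcf7 (16.6 ± 2.53 TPM). Both were lowest in MG_Control. Znrf3 ran from 8.49 ± 0.86 TPM in COL_5FU down to 3.69 ± 0.81 TPM in VIL. Sfrp5 was at 20.5 ± 2.54 TPM in MG_Control, and the means of the other 5 groups lay between 0.201 and 1.69 TPM. Notum was highest in VIL (3.23 ± 1.48 TPM), with no overlap with the next group.

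**Figure D2:**
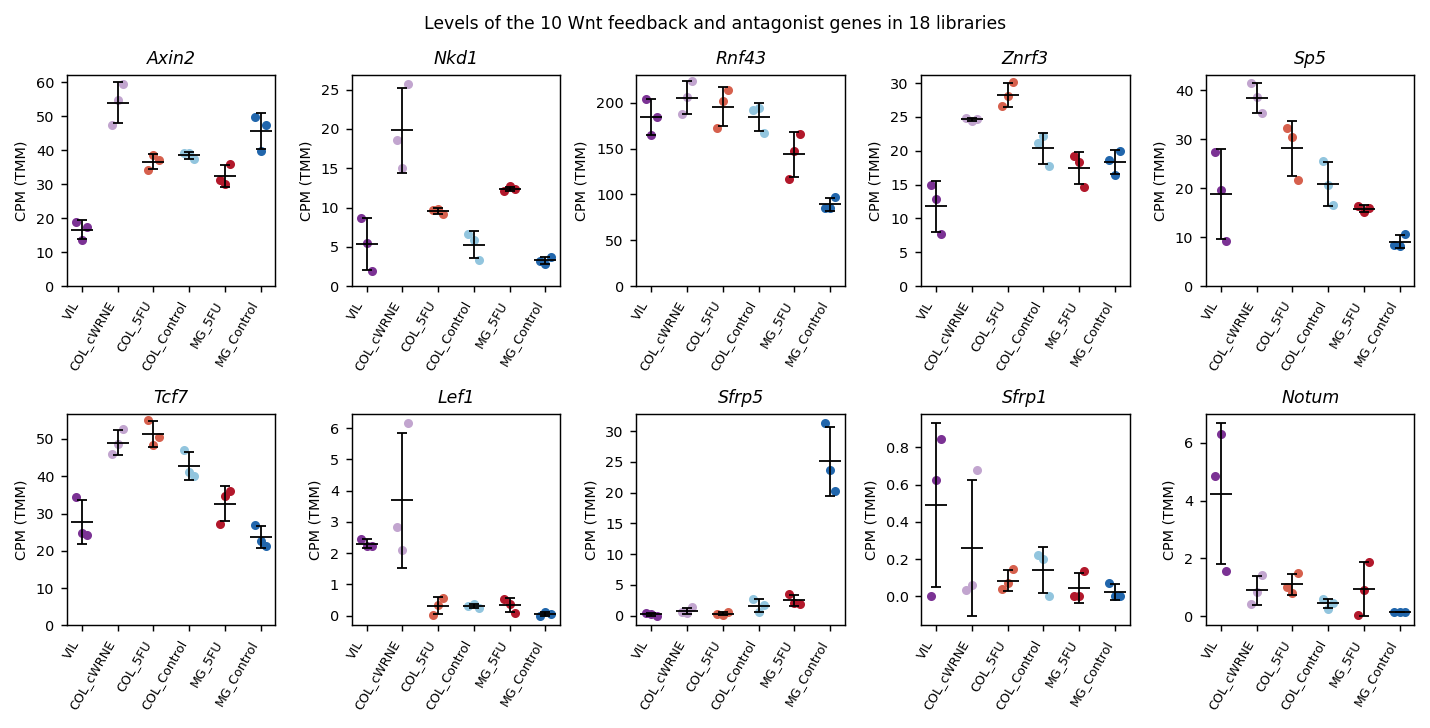
Counts per M (CPM, TMM scaling over 18 libraries) of each gene by group; points are libraries, long bars the mean and whiskers the SD (n = 3). Sfrp5 lies at 20.3 to 31.2 CPM in MG_Control and at 3.54 CPM or below in the other groups, and Axin2 is lowest in VIL.

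The 5-FU comparison in Matrigel asked how the drug moved these genes in crypt-derived organoids in ENR medium. Among the cytoplasmic inhibitors Nkd1 rose and Axin2 fell, so the feedback genes did not move as one. The ubiquitin ligase gene Rnf43 and the transcription factor genes Sp5 and Tcf7 rose, and the secreted antagonist gene Sfrp5 fell to a far lower level. Of 9 genes tested, 5 were called higher and 2 lower by edgeR at an adjusted p under 0.05, against 30.9% of all 16611 genes tested (19.2% higher and 11.7% lower). Their median log2 fold change was 0.73, against 0.06 for all genes.

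Nkd1 had 12.1, 12.7 and 12.3 CPM in MG_5FU, against 3.25, 2.85 and 3.76 CPM in MG_Control. Every treated library lay above every untreated one, and the log2 fold change was 1.96 ± 0.25 (SE, edgeR adjusted p = 4.49e-05). Axin2 had 31.1, 30.0 and 36.0 CPM in MG_5FU, against 49.6, 39.6 and 47.4 CPM in MG_Control. The groups did not overlap, and the log2 fold change was -0.45 ± 0.11 (edgeR adjusted p = 0.00804). Rnf43 had 117, 148 and 166 CPM in MG_5FU, against 84.7, 85.5 and 97.6 CPM in MG_Control. The 3 treated libraries were all higher, by 0.73 ± 0.14 on the log2 scale (edgeR adjusted p = 0.00105). Its paralog Znrf3 had 19.2, 18.3 and 14.7 CPM in MG_5FU, against 18.6, 16.4 and 20.0 CPM in MG_Control, with overlapping groups and a log2 difference of -0.03 ± 0.15 (edgeR adjusted p = 0.921).

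Sp5 had 16.4, 15.1 and 15.9 CPM in MG_5FU, against 8.45, 8.14 and 10.6 CPM in MG_Control. The groups were apart, with a log2 fold change of 0.85 ± 0.19 (edgeR adjusted p = 0.00462). That call ended with all 18 libraries in one fit. Tcf7 had 27.2, 34.8 and 36.1 CPM in MG_5FU, against 27.0, 22.5 and 21.3 CPM in MG_Control. MG_5FU replicate 1 lay next to the highest untreated library, and the log2 fold change was 0.52 ± 0.13 (edgeR adjusted p = 0.00825). The call of Tcf7 ended when library totals replaced TMM scaling (edgeR adjusted p = 0.0598) and with only the 2 groups in the fit (edgeR adjusted p = 0.0504). On the TPM scale the log2 differences of Rnf43, Sp5 and Tcf7 were 0.40, 0.47 and 0.19 and did not pass by limma, while the median of all genes was shifted by -0.29.

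Sfrp5 had 3.54, 2.09 and 1.98 CPM in MG_5FU, against 31.2, 23.7 and 20.3 CPM in MG_Control. All 3 treated libraries were far below the untreated ones, by a log2 fold change of -3.25 ± 0.48 (edgeR adjusted p = 1.74e-04). It stayed between -3.56 and -3.07 with any 1 library left out. Notum had 1, 24 and 41 counts in MG_5FU replicates 1, 2 and 3, against 4, 4 and 5 counts in MG_Control. Only replicates 2 and 3 were high, and the log2 fold change was 2.69 ± 0.93 (edgeR adjusted p = 0.0412). The call of Notum ended when library totals replaced TMM scaling. It ended too with the replicate number as a block (log2 fold change 2.47, edgeR adjusted p = 0.0669). It also ended without any 1 of the MG_Control replicates or without MG_5FU replicate 2 or 3, with a log2 fold change from 1.70 to 2.73 and an edgeR adjusted p from 0.0756 to 0.229. Lef1 had 16, 10 and 2 counts in MG_5FU, against 0, 3 and 2 counts in MG_Control, and did not pass (edgeR adjusted p = 0.0879). Sfrp1, with 3 counts over MG_5FU and 2 over MG_Control, was below the filter on low counts.

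Other Wnt pathway genes were described from lists. Of 12 ligand and secretion genes tested, 7 rose and 1 fell, among them the Paneth cell ligand gene Wnt3 (log2 fold change 1.69 ± 0.16). Of 10 other intestinal Wnt target genes 5 rose and 0 fell, with a median log2 fold change of 0.50; they included the cyclin gene Ccnd1 (2.05 ± 0.19) and the adhesion receptor gene Cd44 (1.35 ± 0.13). Of 15 receptor and R-spondin genes 3 rose and 2 fell. The Frizzled gene Fzd10 rose (8.59 ± 0.89), with the smallest adjusted p of that list. The stem cell receptor gene Lgr5 was among those that fell (-0.71 ± 0.25, edgeR adjusted p = 0.041). Of 14 genes of the destruction complex and Dishevelled 2 rose and 3 fell, of 10 nuclear effectors 1 rose and 0 fell, and of 9 other antagonists 1 rose (Cxxc5, 1.70 ± 0.26) and 0 fell.

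**Figure D3:**
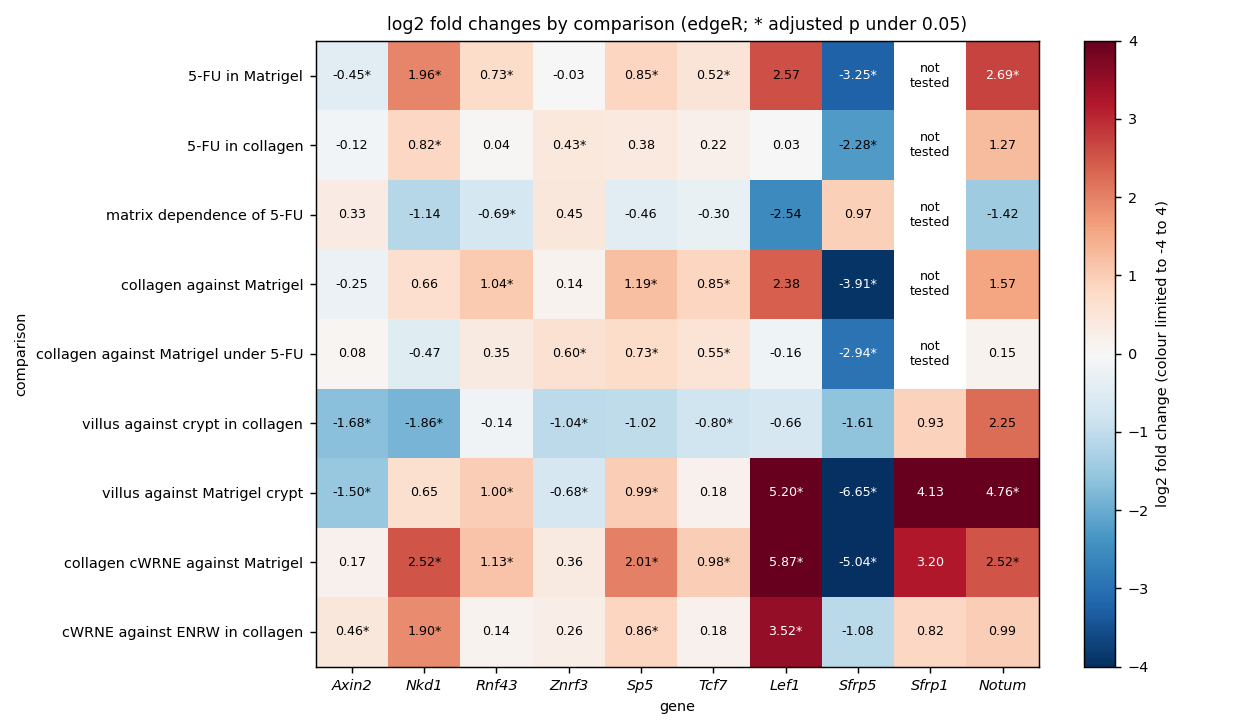
edgeR log2 fold changes of the 10 genes (columns) in the 9 comparisons (rows), tested group over its reference; stars mark an adjusted p under 0.05 and colour runs from -4 (blue) to 4 (red). Nkd1 carries a star in both 5-FU rows, Axin2 is lower in both villus rows, and Sfrp5 is lower with a star in 6 of the 9 rows.

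With 5-FU in collagen and ENRW medium, Nkd1 and Znrf3 were called higher and Sfrp5 lower, whereas Axin2, Rnf43, Sp5 and Tcf7 did not pass. That is 2 higher and 1 lower of 9 genes tested, against 35.3% of all genes (18.6% higher and 16.7% lower). The median log2 fold change was 0.22, against -0.03 for all genes.

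Nkd1 had 9.71, 9.85 and 9.14 CPM in COL_5FU, against 6.58, 5.83 and 3.30 CPM in COL_Control. The groups did not overlap and the log2 fold change was 0.82 ± 0.24 (edgeR adjusted p = 0.0158). Znrf3 had 26.6, 28.1 and 30.1 CPM in COL_5FU, against 21.2, 22.1 and 17.7 CPM in COL_Control, with a log2 fold change of 0.43 ± 0.15 (edgeR adjusted p = 0.0354). COL_Control replicate 3, the library with both Xist and Y-linked counts, was the lowest for both genes. Without it the log2 fold changes were 0.58 for Nkd1 (edgeR adjusted p = 0.0528) and 0.34 for Znrf3 (edgeR adjusted p = 0.139), and both calls ended. That of Znrf3 also ended without COL_Control replicate 1 or any 1 of the COL_5FU replicates (log2 fold changes of 0.37 to 0.48), and with library totals (0.32, edgeR adjusted p = 0.121). Axin2 had 34.2, 38.6 and 37.2 CPM in COL_5FU, against 39.2, 39.1 and 37.4 CPM in COL_Control, and its log2 difference of -0.12 ± 0.11 did not pass (edgeR adjusted p = 0.445).

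Rnf43 had 172, 202 and 214 CPM in COL_5FU, against 193, 194 and 167 CPM in COL_Control, with overlapping groups (log2 difference 0.04 ± 0.13, edgeR adjusted p = 0.847). For Sp5 the log2 difference was 0.38 ± 0.19 (edgeR adjusted p = 0.14) and for Tcf7 0.22 ± 0.13 (edgeR adjusted p = 0.213). Sfrp5 had 8, 4 and 20 counts in COL_5FU, against 87, 16 and 47 counts in COL_Control. COL_5FU replicate 3 overlapped with COL_Control replicate 2, and the log2 fold change was -2.28 ± 0.56 (edgeR adjusted p = 0.00625), between -2.95 and -1.69 with any 1 library left out. Of the 12 ligand and secretion genes 5 rose and 1 fell. Wnt6 rose (3.68 ± 0.51), with the smallest adjusted p of that list, and here Wnt3 was the one that fell (-0.52 ± 0.16). Of the 10 other intestinal targets 6 rose and 1 fell, among them Ccnd1 (2.44 ± 0.19) and Sox9 (1.19 ± 0.11), a transcription factor of crypt cells. Of the 15 receptor and R-spondin genes 1 rose and 5 fell. The Frizzled gene Fzd10 was the 1 that rose (8.76 ± 0.88), with the smallest adjusted p of that list. Fzd4 (-1.45 ± 0.28) and Lgr4 (-0.81 ± 0.19), which encodes a receptor for R-spondins, were among those that fell. Lgr5 fell here too (-0.97 ± 0.25, edgeR adjusted p = 0.00728). Of the 14 destruction complex and Dishevelled genes 2 rose and 1 fell, of the 10 nuclear effectors 1 rose and 3 fell, and of the 9 other antagonists 0 passed.

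The difference between the 5-FU responses, collagen minus Matrigel, was tested as an interaction. Of 9 genes tested, 0 were called higher and 1 lower, against 8.19% of all genes (1.88% higher and 6.30% lower). Rnf43 was called, with a difference of -0.69 ± 0.19 between the log2 fold changes (edgeR adjusted p = 0.0414), 0.04 in collagen and 0.73 in Matrigel. The call held without MG_Control replicate 3, MG_5FU replicate 1 or COL_5FU replicate 3. It ended without any 1 of the other 9 libraries, at -0.76 to -0.56 (edgeR adjusted p of 0.0504 to 0.117), and with RLE size factors (-0.64, edgeR adjusted p = 0.0552) and library totals (-0.65, edgeR adjusted p = 0.0567). It ended as well with all 18 libraries in one fit (-0.61, edgeR adjusted p = 0.0995) and with limma on TPM (-0.47, adjusted p = 0.321). For Nkd1 the difference was -1.14 ± 0.34 (edgeR adjusted p = 0.0552), and it passed by DESeq2 (-1.08, adjusted p = 0.0183) and without COL_Control replicate 3 (-1.38, edgeR adjusted p = 0.0112). The differences of Axin2 (0.33 ± 0.16), Znrf3 (0.45 ± 0.21), Sp5 (-0.46 ± 0.27), Tcf7 (-0.30 ± 0.18), Sfrp5 (0.97 ± 0.74), Lef1 and Notum did not pass. Of 12 ligand and secretion genes 1 was higher (Porcn) and 1 lower (Wnt3). Of 15 receptor and R-spondin genes 0 were higher and 1 lower (Fzd9), and of 10 other targets 0 and 1 (Mmp7). Of 14 destruction complex and Dishevelled genes, 10 nuclear effectors and 9 other antagonists, 0 passed. Wnt3 differed by -2.21 ± 0.23 (edgeR adjusted p = 1.08e-04).

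Untreated crypt organoids in collagen with ENRW were set against those in Matrigel with ENR. Rnf43, Sp5 and Tcf7 were higher in collagen, and Sfrp5 was much lower. Of 9 genes tested, 3 were called higher and 1 lower, against 31.2% of all genes (15.8% higher and 15.4% lower), and the median log2 fold change was 0.85, against 0.04 for all genes. Rnf43 had 193, 194 and 167 CPM in COL_Control, against 84.7, 85.5 and 97.6 CPM in MG_Control. The groups were far apart, with a log2 fold change of 1.04 ± 0.14 (edgeR adjusted p = 7.55e-05). Sp5 had 25.5, 20.7 and 16.6 CPM in COL_Control, against 8.45, 8.14 and 10.6 CPM in MG_Control, a log2 fold change of 1.19 ± 0.19 (edgeR adjusted p = 4.17e-04). Tcf7 had 46.9, 41.2 and 40.0 CPM in COL_Control, against 27.0, 22.5 and 21.3 CPM in MG_Control, a log2 fold change of 0.85 ± 0.13 (edgeR adjusted p = 2.69e-04). For these 3 genes no collagen library overlapped with a Matrigel library.

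Sfrp5 had 2.75, 0.536 and 1.70 CPM in COL_Control, against 31.2, 23.7 and 20.3 CPM in MG_Control. The log2 fold change was -3.91 ± 0.50 (edgeR adjusted p = 5.60e-05), between -4.49 and -3.49 with any 1 library left out. Axin2 did not pass (-0.25 ± 0.11, edgeR adjusted p = 0.112), nor did Znrf3 (0.14 ± 0.15, edgeR adjusted p = 0.513). Nkd1 had 6.58, 5.83 and 3.30 CPM in COL_Control, against 3.25, 2.85 and 3.76 CPM in MG_Control. Only COL_Control replicate 3 fell among the Matrigel libraries; the log2 difference was 0.66 ± 0.24 (edgeR adjusted p = 0.0526), and 0.90 without that library (edgeR adjusted p = 0.00588). Lef1 had 10, 11 and 7 counts in COL_Control, against 0, 3 and 2 in MG_Control, and did not pass (edgeR adjusted p = 0.112). Among receptor and R-spondin genes, 4 of 15 were higher and 2 lower, with Lrp5 at 1.01 ± 0.14 and the stem cell receptor gene Lgr5 at 1.53 ± 0.25. Of 12 ligand and secretion genes 6 were higher and 2 lower, of 10 other targets 3 and 1, of 14 destruction complex and Dishevelled genes 4 and 0, of 10 nuclear effectors 1 and 0, and of 9 other antagonists 1 and 1.

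Under 5-FU the same contrast gave 3 genes higher and 1 lower of 9, against 35.5% of all genes (17.0% higher and 18.6% lower), with a median log2 fold change of 0.15 against 0.00 for all genes to 2 decimals. Sp5 had 32.3, 30.4 and 21.8 CPM in COL_5FU, against 16.4, 15.1 and 15.9 CPM in MG_5FU (log2 fold change 0.73 ± 0.19, edgeR adjusted p = 0.00922). Tcf7 had 55.0, 48.3 and 50.5 CPM in COL_5FU, against 27.2, 34.8 and 36.1 CPM in MG_5FU (0.55 ± 0.13, edgeR adjusted p = 0.00482). Znrf3 had 26.6, 28.1 and 30.1 CPM in COL_5FU, against 19.2, 18.3 and 14.7 CPM in MG_5FU (0.60 ± 0.15, edgeR adjusted p = 0.00625). In all 3 cases the groups did not overlap. Sfrp5 was lower by a log2 fold change of -2.94 ± 0.56 (edgeR adjusted p = 9.92e-04). Rnf43 did not pass (0.35 ± 0.14, edgeR adjusted p = 0.0622), but passed with the replicate number as a block (0.35, edgeR adjusted p = 0.0339) and by DESeq2 (0.37, adjusted p = 0.0267). Of 12 ligand and secretion genes 6 were higher and 3 lower, of 15 receptor genes 4 and 4, of 10 other targets 5 and 1, of 14 destruction complex and Dishevelled genes 3 and 0, of 10 nuclear effectors 1 and 3, and of 9 other antagonists 1 and 1.

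Crypt organoids in collagen with cWRNE were set against the Matrigel controls. Nkd1, Rnf43, Sp5, Tcf7, Lef1 and Notum were higher and Sfrp5 lower, 6 and 1 of 10 genes tested, against 33.3% of all 16699 genes (20.1% higher and 13.1% lower). The median log2 fold change was 1.57, against -0.01 for all genes. Nkd1 had 18.7, 15.0 and 25.7 CPM in COL_cWRNE, against 3.25, 2.85 and 3.76 CPM in MG_Control, a log2 fold change of 2.52 ± 0.47 (edgeR adjusted p = 0.00324). Sp5 had 41.5, 38.6 and 35.4 CPM in COL_cWRNE, against 8.45, 8.14 and 10.6 CPM in MG_Control, a log2 fold change of 2.01 ± 0.34 (edgeR adjusted p = 0.00184). Both genes stood well apart between the groups. Rnf43 was higher by 1.13 ± 0.13 on the log2 scale (edgeR adjusted p = 2.44e-04) and Tcf7 by 0.98 ± 0.18 (edgeR adjusted p = 0.00265).

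Lef1 had 80, 67 and 181 counts in COL_cWRNE, against 0, 3 and 2 counts in MG_Control, with no overlap. Its log2 fold change was 5.87 ± 0.79 (edgeR adjusted p = 5.17e-04), between 5.30 and 6.62 with any 1 library left out. Sfrp5 had 0.564, 0.442 and 1.39 CPM in COL_cWRNE, against 31.2, 23.7 and 20.3 CPM in MG_Control, a log2 fold change of -5.04 ± 0.69 (edgeR adjusted p = 5.72e-04), between -5.68 and -4.70 with any 1 library left out. Notum had 12, 27 and 42 counts in COL_cWRNE, against 4, 4 and 5 in MG_Control (2.52 ± 0.68, edgeR adjusted p = 0.0189). The call of Notum ended without any 1 of the MG_Control replicates or without COL_cWRNE replicate 3, at 2.04 to 2.58 (edgeR adjusted p of 0.0541 to 0.0669). Axin2 had 47.5, 54.9 and 59.4 CPM in COL_cWRNE, against 49.6, 39.6 and 47.4 CPM in MG_Control. The groups overlapped, and the log2 difference of 0.17 ± 0.17 did not pass (edgeR adjusted p = 0.465). Znrf3 (0.36 ± 0.23) and Sfrp1, which had 23 counts over COL_cWRNE with 20 of them in replicate 3, did not pass. Of 13 ligand and secretion genes 7 were higher and 0 lower, of 10 other targets 5 and 0, of 13 destruction complex and Dishevelled genes 7 and 0, of 14 receptor genes 2 and 1, of 11 nuclear effectors 1 and 0, and of 12 other antagonists 3 and 0. Ctnnb1, which encodes β-catenin, was at 0.94 ± 0.14.

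Crypt organoids in collagen with cWRNE were also set against those with ENRW, a contrast between groups of separate sub-studies. Axin2, Nkd1, Sp5 and Lef1 were higher and no gene of the 10 was called lower, 4 and 0, against 18.0% of all 17708 genes (13.1% higher and 4.85% lower). The median log2 fold change was 0.64, against 0.00 for all genes to 2 decimals. Nkd1 had 18.7, 15.0 and 25.7 CPM in COL_cWRNE, against 6.58, 5.83 and 3.30 CPM in COL_Control, a log2 fold change of 1.90 ± 0.38 (edgeR adjusted p = 0.00247). Lef1 had 80, 67 and 181 counts in COL_cWRNE, against 10, 11 and 7 counts in COL_Control, a log2 fold change of 3.52 ± 0.78 (edgeR adjusted p = 0.00472). Neither gene overlapped between the groups. Axin2 had 47.5, 54.9 and 59.4 CPM in COL_cWRNE, against 39.2, 39.1 and 37.4 CPM in COL_Control (0.46 ± 0.14, edgeR adjusted p = 0.0272). Sp5 had 41.5, 38.6 and 35.4 CPM in COL_cWRNE, against 25.5, 20.7 and 16.6 CPM in COL_Control (0.86 ± 0.28, edgeR adjusted p = 0.0416).

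The calls of Axin2 and Sp5 in that contrast were near the threshold. That of Axin2 ended without any 1 of the COL_Control replicates or without COL_cWRNE replicate 2 or 3, at 0.39 to 0.48 (edgeR adjusted p of 0.0605 to 0.126). That of Sp5 ended without COL_Control replicate 2 or 3 or any 1 of the COL_cWRNE replicates, at 0.69 to 0.92 (edgeR adjusted p of 0.0643 to 0.18). Library totals ended both, at 0.29 (edgeR adjusted p = 0.163) and 0.68 (edgeR adjusted p = 0.0866). Rnf43 (0.14 ± 0.13), Znrf3 (0.26 ± 0.19), Tcf7 (0.18 ± 0.15), Sfrp5 (-1.08 ± 0.66), Notum (0.99 ± 0.81) and Sfrp1 did not pass. Of 13 ligand and secretion genes 7 were higher and 0 lower, of 10 other targets 6 and 0, of 16 receptor genes 2 and 2, of 14 destruction complex and Dishevelled genes 3 and 1, of 11 nuclear effectors 0 and 1, and of 12 other antagonists 2 and 0. Lgr5 was lower in COL_cWRNE, with a log2 fold change of -1.08 ± 0.35 (edgeR adjusted p = 0.0401).

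Villus-derived organoids were compared with crypt-derived ones in the same matrix and medium. The cytoplasmic inhibitor genes Axin2 and Nkd1, the ligase gene Znrf3 and the transcription factor gene Tcf7 were lower in VIL, and no gene of the 10 was called higher. That is 0 higher and 4 lower of 10 tested, against 7.64% of all genes (5.68% higher and 1.96% lower). The median log2 fold change was -0.91, against -0.03 for all genes. Axin2 had 19.0, 13.5 and 17.4 CPM in VIL, against 47.5, 54.9 and 59.4 CPM in COL_cWRNE. Every villus-derived library was far below every crypt-derived one, by a log2 fold change of -1.68 ± 0.17 (edgeR adjusted p = 0.00138). With VIL replicate 1 alone it was -1.48 (edgeR adjusted p = 0.00221), the lone library being assumed to vary like the others, and the call held in every alternative run.

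Nkd1 had 8.64, 5.50 and 1.96 CPM in VIL, against 18.7, 15.0 and 25.7 CPM in COL_cWRNE (-1.86 ± 0.46, edgeR adjusted p = 0.0387). Znrf3 had 15.0, 12.8 and 7.64 CPM in VIL, against 24.9, 24.4 and 24.7 CPM in COL_cWRNE (-1.04 ± 0.24, edgeR adjusted p = 0.0297). Tcf7 had 34.6, 24.7 and 24.2 CPM in VIL, against 46.0, 48.5 and 52.6 CPM in COL_cWRNE (-0.80 ± 0.18, edgeR adjusted p = 0.0267). For all 3 genes the groups did not overlap, and VIL replicate 1, with the lowest mesenchymal marker level of the 3, was nearest to the crypt libraries. With VIL replicate 1 alone the log2 fold changes were -1.17, -0.69 and -0.48 for Nkd1, Znrf3 and Tcf7, and none of the 3 passed (edgeR adjusted p of 0.095, 0.109 and 0.204). The 3 calls also ended without any 1 of the COL_cWRNE replicates or without VIL replicate 2, where the edgeR adjusted p ran from 0.0793 to 0.155 for Nkd1, from 0.071 to 0.109 for Znrf3 and from 0.0854 to 0.125 for Tcf7. With the replicate number as a block the calls of Nkd1 (-1.93, edgeR adjusted p = 0.0725) and Znrf3 (-1.07, edgeR adjusted p = 0.0513) ended. The part of non-epithelial cells in these differences was not tested.

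Rnf43 had 204, 165 and 184 CPM in VIL, against 187, 206 and 223 CPM in COL_cWRNE, with overlapping groups (log2 difference -0.14 ± 0.13, edgeR adjusted p = 0.594). Whether it differed from Znrf3 in this contrast was not tested. Sp5 had 27.5, 19.6 and 9.16 CPM in VIL, against 41.5, 38.6 and 35.4 CPM in COL_cWRNE, without overlap, but did not pass (-1.02 ± 0.33, edgeR adjusted p = 0.0978). It passed without VIL replicate 1 (-1.37, edgeR adjusted p = 0.0169) and was -0.46 with that replicate alone (edgeR adjusted p = 0.318). Notum, whose product inactivates Wnt ligands, had 124, 202 and 35 counts in VIL, against 12, 27 and 42 counts in COL_cWRNE. VIL replicate 3 lay within the crypt range in counts but above it in CPM, at 1.56 against 0.423, 0.853 and 1.43 CPM in COL_cWRNE. The log2 difference of 2.25 ± 0.61 did not pass (edgeR adjusted p = 0.055). It was 2.64 without VIL replicate 3 (edgeR adjusted p = 0.0166) and 2.45 with VIL replicate 1 alone. Lef1 had 63, 71 and 50 counts in VIL, against 80, 67 and 181 in COL_cWRNE, and did not pass (edgeR adjusted p = 0.563).

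Sfrp1 had 0, 20 and 19 counts in VIL replicates 1, 2 and 3, against 1, 2 and 20 counts in COL_cWRNE. The villus-derived counts came from the replicates with 318 and 314 TPM of mesenchymal markers and not from the replicate with 23.0 TPM. COL_cWRNE replicate 3, which also had 20 counts, held 3.15 TPM of those markers. The difference did not pass (edgeR adjusted p = 0.751), and the cell source of Sfrp1 was not tested. Of 10 other intestinal Wnt targets 0 were higher and 3 lower in VIL, namely Tnfrsf19 (-3.07 ± 0.38), Myc (-0.72 ± 0.13) and Ascl2 (-0.99 ± 0.25), a stem cell transcription factor. Of 13 ligand and secretion genes 2 were higher and 0 lower, Wnt4 (4.27 ± 0.63) and Wnt5a (4.76 ± 1.01). Of 12 other antagonists 2 were higher and 0 lower, Dkk3 (4.89 ± 1.09) and Cxxc5 (0.96 ± 0.25). Of 14 receptor genes 0 were higher and 1 lower, of 13 destruction complex and Dishevelled genes 0 and 1, and of 11 nuclear effectors 1 and 0. Of the 12 mesenchymal markers 10 were tested and all 10 were higher in VIL, and of 5 other immune markers tested 3 were higher. For these called markers the log2 fold changes stayed positive with VIL replicate 1 alone. They ran from 1.26 (Acta2) to 11.2 (Col3a1) for mesenchymal markers, without Des, which was not tested there. For the immune markers they ran from 1.04 (Csf1r) to 11.0 (Adgre1). That replicate thus held non-epithelial marker RNA too, and its part was not tested. With VIL replicate 1 alone, a setting applied to the lists after seeing the data, 4 of the 10 list calls held. Tnfrsf19 was then at -2.41 and Wnt4 at 3.30, both called, whereas Wnt5a (2.27, edgeR adjusted p = 0.326), Dkk3 (1.92, edgeR adjusted p = 0.42), Myc (-0.56, edgeR adjusted p = 0.0709), Ascl2 (-0.54, edgeR adjusted p = 0.193) and Cxxc5 (1.04, edgeR adjusted p = 0.0972) did not pass.

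Against the Matrigel controls, with which they shared neither matrix nor medium, villus-derived organoids had 4 of the 10 genes higher and 3 lower, against 46.6% of all genes (27.0% higher and 19.7% lower). The median log2 fold change was 0.82, against 0.02 for all genes. Lower were Axin2 (-1.50 ± 0.17, edgeR adjusted p = 2.16e-04), Znrf3 (-0.68 ± 0.24, edgeR adjusted p = 0.0383) and Sfrp5 (-6.65 ± 0.77, edgeR adjusted p = 2.13e-04). Axin2 had 19.0, 13.5 and 17.4 CPM in VIL, against 49.6, 39.6 and 47.4 CPM in MG_Control, without overlap, and -1.30 on the log2 scale with VIL replicate 1 alone (edgeR adjusted p = 0.0015). Sfrp5 had 11, 10 and 0 counts in VIL, against 865, 666 and 668 counts in MG_Control, and its log2 fold change lay between -7.13 and -6.13 with any 1 library left out. The call of Znrf3 ended with VIL replicate 1 alone (-0.33, edgeR adjusted p = 0.323). It also ended without any 1 of the MG_Control replicates, VIL replicate 2 or VIL replicate 3, at -0.73 to -0.45 (edgeR adjusted p of 0.0629 to 0.128), the smallest size being that without VIL replicate 3.

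Higher in VIL than in MG_Control were Rnf43 (1.00 ± 0.13, edgeR adjusted p = 4.18e-04), Sp5 (0.99 ± 0.33, edgeR adjusted p = 0.0339), Lef1 (5.20 ± 0.78, edgeR adjusted p = 7.67e-04) and Notum (4.76 ± 0.71, edgeR adjusted p = 7.67e-04). Notum had 124, 202 and 35 counts in VIL, against 4, 4 and 5 counts in MG_Control, and Lef1 had 63, 71 and 50 counts in VIL, against 0, 3 and 2. Neither overlapped between the groups, and with VIL replicate 1 alone the log2 fold changes were 4.98 for Notum (edgeR adjusted p = 8.17e-04) and 5.32 for Lef1 (edgeR adjusted p = 0.00168). The call of Sp5 ended without MG_Control replicate 1 or 2 or without VIL replicate 1 or 2, at 0.66 to 0.99 (edgeR adjusted p of 0.0749 to 0.0904), and was lowest without VIL replicate 1. Nkd1 (0.65 ± 0.46, edgeR adjusted p = 0.261), Tcf7 (0.18 ± 0.18, edgeR adjusted p = 0.417) and Sfrp1 (edgeR adjusted p = 0.0811) did not pass, although Nkd1 passed without VIL replicate 3 (1.05, edgeR adjusted p = 0.0221). Of 13 ligand and secretion genes 9 were higher and 1 lower, of 12 other antagonists 6 and 0, of 14 receptor genes 4 and 3, of 13 destruction complex and Dishevelled genes 6 and 2, of 11 nuclear effectors 4 and 2, and of 10 other targets 3 and 2. With VIL replicate 1 alone 23 of these 42 list calls held. This contrast and those of the other groups with MG_Control share the same 3 control libraries.

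Ratios between genes within a library do not depend on the scaling between libraries and show how far the genes parted. The TPM ratio of Nkd1 to Axin2, both cytoplasmic inhibitors, was 0.727, 0.790 and 0.601 in MG_5FU, against 0.0824, 0.111 and 0.0960 in MG_Control. It was 0.548, 0.497 and 0.410 in COL_5FU, against 0.280, 0.219 and 0.164 in COL_Control. In neither pair did the groups overlap. In VIL the ratio was 0.657, 0.615 and 0.211, against 0.750, 0.501 and 0.794 in COL_cWRNE, where the groups overlapped.

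The ratio of Sp5 to Axin2 was 1.18, 1.19 and 1.16 in MG_5FU, against 0.372, 0.524 and 0.595 in MG_Control, with no overlap. It was 2.42, 1.93 and 1.43 in COL_5FU, against 1.56, 1.08 and 0.967 in COL_Control, with overlap. The ratio of the ligase genes, Rnf43 to Znrf3, was 15.1, 19.1 and 22.6 in VIL, against 9.35, 10.1 and 12.1 in COL_cWRNE. It was 7.92, 8.00 and 9.21 in COL_5FU, against 11.8, 12.5 and 13.4 in COL_Control, and 6.57, 12.4 and 16.7 in MG_5FU, against 5.62, 6.39 and 6.54 in MG_Control. Each 5-FU group lay wholly on one side of its control, lower in collagen and higher in Matrigel, with MG_5FU replicate 1 close to MG_Control. These ratios are a description and were not tested.

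**Figure D4:**
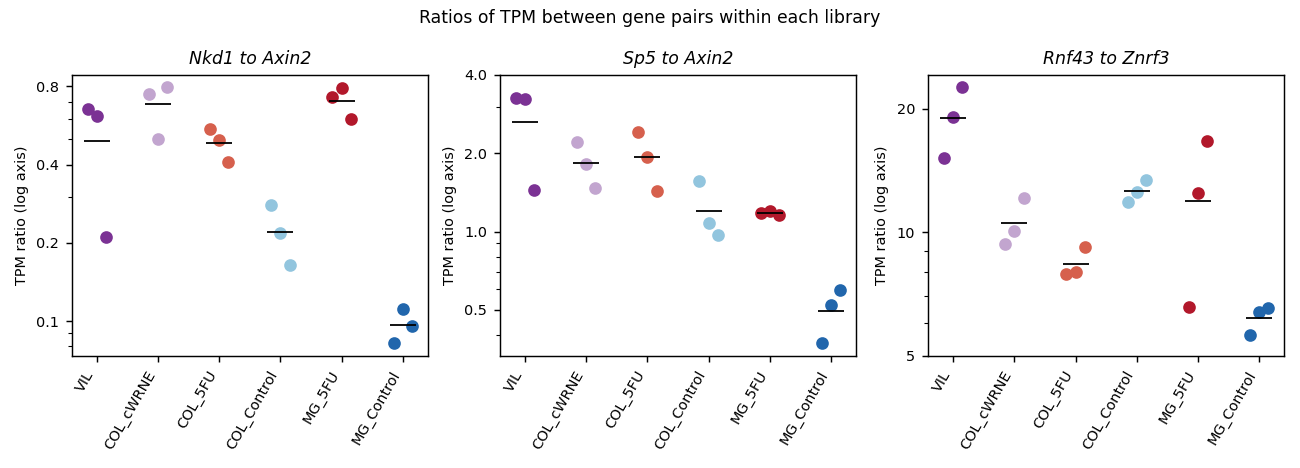
TPM ratios within each library (log axis) for Nkd1 to Axin2, Sp5 to Axin2 and Rnf43 to Znrf3, by group; points are libraries and bars the mean of 3. The ratio of Nkd1 to Axin2 is 0.111 or lower in MG_Control and 0.601 or higher in MG_5FU, and that of Rnf43 to Znrf3 has its highest mean in VIL.

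Patterns over the 18 libraries were compared by the root mean square difference between centred log2 CPM profiles, a description in which all genes share the same libraries and groups. Among the 10 genes the closest pair was Rnf43 and Tcf7, at 0.31. Nkd1 was closest to Sp5 at 0.61, Sp5 to Tcf7 at 0.43, Axin2 to Znrf3 at 0.40 and Znrf3 to Tcf7 at 0.35. Among 11165 genes with a mean of at least 5 CPM, the profile of Rnf43 was most like those of Garem1 and Cd47 (0.20 and 0.21), and that of Nkd1 most like that of Mab21l3 (0.57), with Sp5 second. Sp5 was most like 2610035D17Rik and Tsc22d1 (0.33 and 0.34), Axin2 most like Cnn3 (0.28), Tcf7 most like Sap30 (0.23) and Znrf3 most like Ublcp1 and Myc (0.22 and 0.23). With TPM in place of CPM the closest gene stayed the same for Rnf43, Nkd1 and Sp5 and changed for Axin2, Tcf7 and Znrf3. Distances grow with a gene's own spread. The nearest gene to Lef1 was Ptprr at 0.88, beside an SD of 2.11 for Lef1 itself, and the nearest to Sfrp5 was Slc1a3 at 1.06, beside an SD of 2.54. For Notum it was Il17re at 1.09, beside an SD of 1.70, and for Sfrp1 Efemp2 at 1.04, beside an SD of 1.60. The SDs of Nkd1 and Rnf43 were 1.02 and 0.45.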

How the data were processed

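The authors deposited, per the file headers, estimated counts per gene and TPM for each library; the counts carry no scaling between libraries, and 67.8% of the nonzero ones were whole to within 1e-09. Per the submitters' processing notes, the tools were DRAGEN and bcl2fastq 2.20 and the build GRCm39 (mm39); the annotation and the counting tool are not given in the sources used here. Per the labels' protocols, Nextera XT libraries were prepared from SMART-Seq mRNA amplification. A kit of that kind does not mark strand, so reads of overlapping antisense genes would not be separated. TPM sums to 1000000 in each library.

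Rounded estimated counts entered edgeR 4.0.16 under R 4.3.3, with TMM scaling, group as the only term, filterByExpr at a minimum count of 10 and total of 15, and the quasi-likelihood F-test. Benjamini-Hochberg adjustment covered every gene tested, and calls needed an adjusted p under 0.05. One fit for the 5-FU and matrix contrasts used 12 libraries, one for those among VIL, COL_cWRNE and MG_Control used 9, and cWRNE against ENRW used 18. SE is the log2 fold change divided by the root of its F statistic. CPM is counts per M with TMM scaling over 18 libraries. The procedure was tested on simulated data. The 10 genes and all lists were chosen with earlier results of these data known. The figure of log2 fold changes gives all 10 genes in every contrast, and not each of them is named in the text. Genes named from a list were drawn from the 3 called ones with the smallest adjusted p, not all of which are named. Wnt3 under 5-FU in collagen, and Lgr5 under 5-FU in either culture and in cWRNE against ENRW, were named after their values were seen.

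Replicates are biological per the series text. Same-numbered replicates correlated (0.106 to 0.486 across 9934 genes, group means removed) in the 5-FU, the collagen against Matrigel and the cWRNE against ENRW contrasts, every pair over 0.1. The main fits nevertheless had group as the only term, so the calls and their counts leave this pairing out. The replicate number as a block was run as an alternative, and its values stand beside a result where they changed its call. No pair of libraries was alike within sampling noise (chi-square per degree of freedom 11.3 or more). The alternatives were DESeq2 1.42.0, RLE size factors, library totals, other filters and fits, limma-trend 3.58.1 on log2 of TPM plus 1, a replicate block, a minimum absolute log2 fold change of 1, VIL replicate 1 alone, and leaving out each library. Counting error at low counts limits Lef1, Notum and Sfrp1.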

Additional observations from a re-analysis of the deposited data

Results flagged for a closer look

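The response of Rnf43 to 5-FU differed between the cultures by the interaction test, with a difference of -0.69 between the log2 fold changes, collagen minus Matrigel (edgeR adjusted p = 0.0414). The call is not firm: it ended without any 1 of 9 of the 12 libraries and in 5 of 9 other settings, across which the difference ran from -0.82 to -0.47. The group means were 196 and 185 CPM in COL_5FU and COL_Control, and 144 and 89.3 CPM in MG_5FU and MG_Control. Matrix and medium changed together between the cultures and cannot be told apart.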

How the results depend on the processing

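Of 41 calls over the 9 comparisons, 29 held without each single library and 12 did not; no called direction reversed in any alternative. Counts of genes called with any 1 library left out were 6 to 7 (7 in the full fit) under 5-FU in Matrigel, 1 to 3 (3) under 5-FU in collagen, 0 to 1 (1) in the interaction, 4 to 5 (4) for collagen against Matrigel without and with 5-FU, 1 to 5 (4) for VIL against COL_cWRNE, 5 to 7 (7) for VIL and 6 to 7 (7) for COL_cWRNE against MG_Control, and 2 to 3 (4) for cWRNE against ENRW. A minimum absolute log2 fold change of 1 left, by its construction, 2 calls for cWRNE against ENRW, 4 for VIL against MG_Control, 1 for collagen against Matrigel under 5-FU, 0 for the interaction, 1 under 5-FU in collagen and 3 under 5-FU in Matrigel. The interaction count was 2 with DESeq2 and with at least 10 CPM in 3 libraries (Rnf43 and Nkd1), 2 with TPM (Nkd1 and Sfrp5, without Rnf43), and 0 with RLE size factors, library totals and all 18 libraries in one fit. TPM left 3 calls for 5-FU in Matrigel, all 18 libraries in one fit left 1 for 5-FU in collagen, and library totals left 2 for cWRNE against ENRW. VIL against COL_cWRNE kept 1 call, Axin2, with only the groups compared and 1, Axin2, with VIL replicate 1 alone, where the other folds were smaller too, and 2 with the replicate block, which ended Nkd1 and Znrf3. The cause of these changes was not tested.

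Replicate numbers went with sex in every group, but no source used here says that they mark the same animals. Not every pair correlated over 0.1 for the interaction, where 1 pair was at 0.0588, or for the contrasts of VIL and COL_cWRNE with the other groups of their fit. Best correlation with the own number was found for 2 of 6 samples of VIL and COL_cWRNE, 4 of 6 of VIL and MG_Control, 5 of 6 of COL_cWRNE and MG_Control, and 6 of 6 for each pair of groups in the 2 by 2 design, a hint from the data and not the design. The block also ended the call of Sp5 in VIL against MG_Control (0.90, edgeR adjusted p = 0.0624); beside these and those named in the report it changed no call. Scaling moved the median log2 fold change of all genes by up to 0.16 with library totals and by -0.29 to 0.37 with TPM. The share of called genes that were higher was 62.2% for 5-FU in Matrigel by TMM, 44.6% by library totals and 28.2% by TPM; for 5-FU in collagen 52.8%, 41.7% and 40.2%; for the interaction 23.0%, 33.0% and 57.8%, and 33.7% by RLE; for collagen against Matrigel 50.7%, 59.7% and 72.8%; under 5-FU 47.8%, 60.4% and 80.5%; for VIL against COL_cWRNE 74.4%, 67.1% and 54.0%; and for cWRNE against ENRW 73.0%, 45.2% and 51.4%. In the order of the 6 groups, CPM kept 6 places for Znrf3, Sp5, Sfrp5 and Sfrp1, 4 for Axin2, Nkd1, Rnf43, Tcf7 and Notum, and 3 for Lef1.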
